A study of Mus musculus with 6 samples.

Results

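The genes described are those of the proteasome, chosen by symbol: every row of the table whose symbol starts with Psma, Psmb, Psmc, Psmd, Psme, Psmf or Psmg and a number, with a mean of at least 10 over the 6 libraries, leaving out the immunoproteasome genes Psmb8, Psmb9 and Psmb10. This took 45 of the 12568 genes with such a mean (14526 rows in all), and no row of that name fell below it. Of the 45, 14 encode the core particle, 17 the regulatory particle and 13 caps, chaperones and an inhibitor. The remaining gene, Psmc3ip, encodes a meiotic recombination protein and is no proteasome subunit, although its symbol fits the rule.

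RNA was sequenced in NMuMG cells, a line of epithelial cells established from mouse mammary gland, in 2 groups of 3 libraries. One group received small interfering RNA (siRNA) against Mnt, which encodes a repressor of transcription that binds E-box DNA as a dimer with Max (siMnt). The other received a non-targeting control siRNA (siNTC). Both groups were under TGF-beta, which drives these cells from an epithelial towards a mesenchymal form, from 16 hours after plating, with TGF-beta and siRNA renewed on day 2 and RNA taken on day 4. Every difference below is therefore between siRNAs in cells of 1 line under TGF-beta, and untreated cells were not analysed here. Mnt itself was at 1316, 896 and 1596 normalised read counts in siNTC replicates 1, 2 and 3 and at 613, 557 and 749 in siMnt, which is 50.4% of the control mean (log2 fold change -0.96 ± 0.22, adjusted p = 0.0546 by limma; 0.00442 when replicate number is a block).

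The proteasome degrades proteins that carry chains of ubiquitin. Its core particle is a barrel of stacked rings: outer rings of alpha subunits form the gate, and inner rings of beta subunits hold the proteolytic sites. The regulatory particle caps the barrel. Its base holds a ring of ATPases that unfold substrates and thread them into the core, with subunits that bind ubiquitin, and its lid holds the deubiquitinase that removes the chain. In many cells the subunit genes are transcribed together, under the factor encoded by Nfe2l1.

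Values are normalised read counts with 1 size factor per library. Reads recovered from these values summed to 22323050 to 42193292 per library over the genes of the table. A log2 fold change is the siMnt mean minus the siNTC mean of log2(value + 1), given ± its standard error (SE). Every adjusted p is limma's, by the Benjamini-Hochberg method over the 12568 genes unless another tool or setting is named. A gene passed below 0.05. Fits with a correction for GC content and length covered 12420 genes and were adjusted over those. siNTC replicate 3 stood apart from the other controls along the first principal component (-0.808, against -43.0 and -52.3 for siNTC replicates 1 and 2 and 29.4 to 35.5 for siMnt). Of 8 markers of simple epithelium 7 were in the table, with a summed level of 118903 to 147217 in siNTC and 129430 to 140880 in siMnt, and Esrp1 was low (5.97 to 26.5). The keratins Krt8, Krt18 and Krt19 make up most of that sum, and other members moved in opposite directions with the block: Cldn4 fell to 29.6% of the control mean (adjusted p = 0.0254 by limma; 0.198 without it) and Cdh1 rose to 140% (adjusted p = 0.0474 by limma; 0.179 without it). Of 7 leukocyte markers 5 were in the table, summing to 2194 to 2797 in siNTC and 3350 to 3456 in siMnt. Csf1r was at 757 to 1196 in siNTC and rose to between 1856 and 2074 in siMnt (adjusted p = 0.0242 by limma), Cd14 and Cd68 were at 90.2% and 85.9% of the control mean and did not pass, and the pan-leukocyte gene Ptprc was near 0 (1.29 to 6.65). Endothelial markers (2 of 4 in the table) summed to 65.2 to 99.6 in siNTC and 41.8 to 49.0 in siMnt. Most of that sum was Cdh5, at 50.4% of the control mean without overlap (adjusted p = 0.0435 by limma with the block, 0.0836 without it). Fibroblast markers (3 of 5) summed to 191 to 249 and 215 to 247. Of these Col1a1 and Pdgfra overlapped, at 109% and 98.2% of the control mean. Dcn was low and did not overlap, with means of 7.07 in siNTC and 14.6 in siMnt (adjusted p = 0.264 by limma; 0.207 with the block). For adipocytes 0 of 3 markers were in the table. The part of these markers in the results below was not tested.

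No proteasome gene passed the test between the groups by limma over all 6 libraries without a block. Of the 45 genes 0 passed in either direction, where 1.37% of all tested genes passed as lower and 2.56% as higher in siMnt. At an unadjusted p under 0.05, 10 of the 45 were lower and 0 higher (10.7% of all tested genes were lower at that level, and 1593 of 12568 higher). edgeR called 0 of the 45, and DESeq2 called 3, Psmd14, Psmd8 and Psmd2, all lower (of all tested genes edgeR called 1.25% lower and 2.29% higher, and DESeq2 4.89% lower and 6.71% higher). Same-numbered libraries deviated together. When replicate number entered the model as a block, 6 of the 45 passed, all lower in siMnt: the ATPases Psmc2, Psmc4 and Psmc6, the base scaffold Psmd2, and the lid subunits Psmd8 and Psmd14 (with the block 6.56% of all tested genes passed as lower and 9.33% as higher). Those 6 are all of the regulatory particle, so the count was 6 of 17 there, 0 of 14 in the core and 0 of 13 among the caps, chaperones and inhibitor. With the block 1 core gene, Psma3, had an unadjusted p under 0.05, against 12 of the regulatory particle (15.4% of all tested genes were lower at that level). After a correction for GC content and length 3 regulatory particle genes passed as lower (3.25% of all tested genes lower, 4.47% higher), and 8 with that correction and the block (8.75% lower, 10.1% higher), with 0 of the core in both.

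The fitted change was below 0 in 40 of the 45 genes, against 51.4% of all tested genes, and in 14 of 14 core and 17 of 17 regulatory particle genes. The median log2 fold change was -0.18 for the core and -0.32 for the regulatory particle, against -0.01 over all tested genes. All 3 siMnt libraries lay below all 3 siNTC libraries in 13 of the 17 regulatory particle genes and in 2 of the 14 core genes, which held for 15.9% of all tested genes. Whether core and regulatory particle differ in these counts was not tested. Because cells were lysed in bulk, fewer transcripts per cell and a change in the make-up of the culture cannot be told apart.

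**Figure D1:**
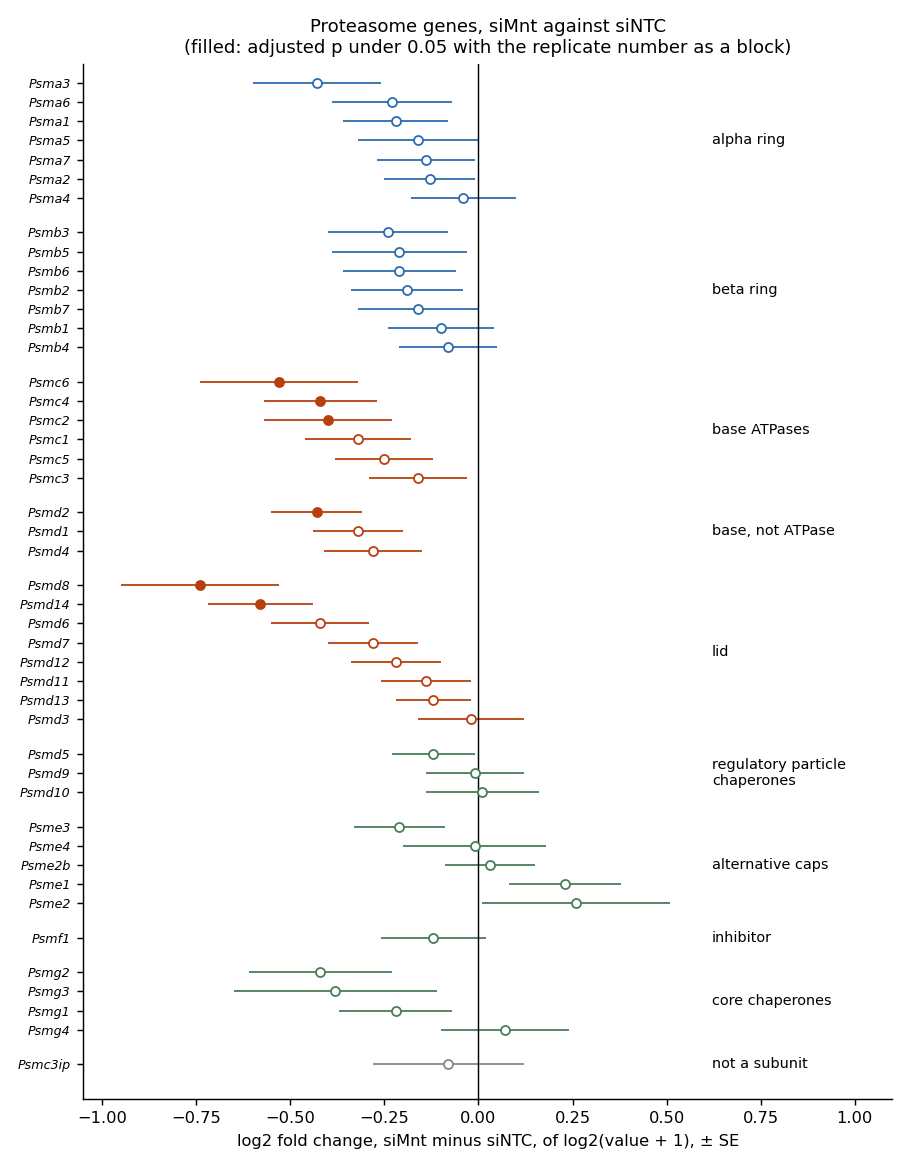
Log2 fold change (siMnt minus siNTC, x axis, bars ± SE, n = 3 libraries per group) of the 45 genes (y axis), grouped by role: blue, core; orange, regulatory particle; green, caps, chaperones and inhibitor; grey, Psmc3ip. Every core and regulatory particle gene lies left of 0, and the 6 filled points, which passed with the replicate number as a block, are all of the regulatory particle.

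The spread among the control libraries was wide. In particular, siNTC replicate 2 was the highest of all 6 libraries in 38 of the 45 genes, among them all 14 core genes, where it was highest for 31.8% of all tested genes. The median core gene lay 0.40 above its own 6-library mean (log2) in siNTC replicate 2, at -0.02 and -0.11 in siNTC replicates 1 and 3, and at -0.11, -0.02 and -0.13 in siMnt replicates 1, 2 and 3. Apart from siNTC replicate 2 the core libraries of the groups thus overlapped. The median regulatory particle gene lay at 0.14, 0.35 and -0.04 in siNTC and at -0.14, -0.11 and -0.19 in siMnt, so these medians did not overlap between the groups. The spread among siNTC libraries was larger than among siMnt libraries in 43 of the 45 genes, as it was in 78.9% of all tested genes.

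**Figure D2:**
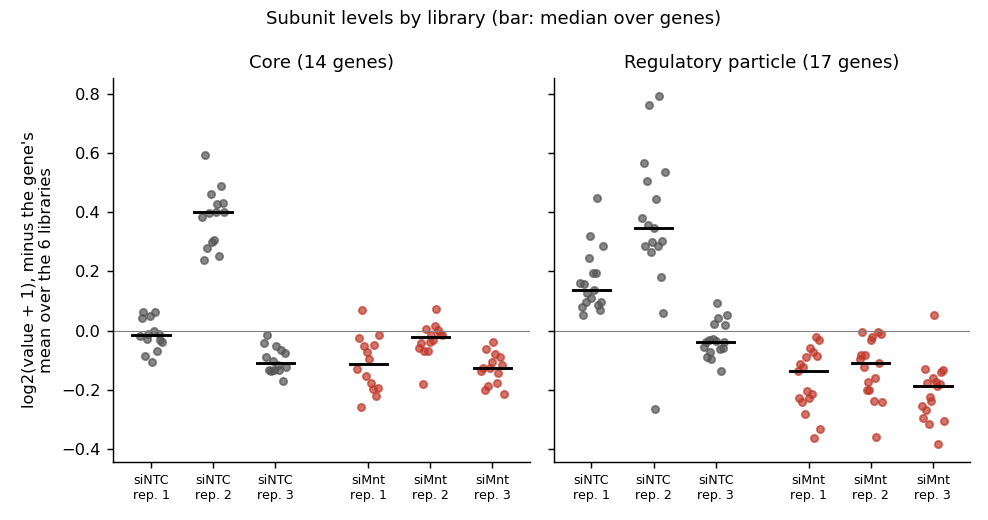
Each point is 1 gene in 1 library, as log2(value + 1) minus the mean of that gene over the 6 libraries (y axis); the x axis gives the library, grey for siNTC and red for siMnt, and bars are medians over genes. In the core siNTC replicate 2 stands above the other 5 libraries, whereas in the regulatory particle the median of every siNTC library lies above the median of every siMnt library; the single low point of siNTC replicate 2 is Psmd3.

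Without siNTC replicate 2, 9 of 14 core genes stayed below 0 with a median of -0.03, and 17 of 17 regulatory particle genes with a median of -0.22 (51.6% of all tested genes were below 0). Of the regulatory particle 14 genes then did not overlap and of the core 2 (23.1% of all tested genes), and limma called 0 of either, with 7 regulatory particle genes and 1 core gene lower at an unadjusted p under 0.05 (0.621% and 11.5% of all tested genes). Here edgeR called 0 of either (0.716% of all tested genes), and DESeq2 3 regulatory particle genes (5.12%). Without siNTC replicate 3, limma called 7 regulatory particle genes lower, and 0 of the core (6.50% of all tested genes lower, 9.51% higher), edgeR called 6 and 0 (6.59% lower), and DESeq2 10 and 1 (9.75% lower). Among the caps, chaperones and inhibitor edgeR and DESeq2 each called 1 gene lower there and limma 0. At an unadjusted p under 0.05 by limma, 13 regulatory particle and 2 core genes were then lower, against 15.3% of all tested genes. Within replicate numbers 1, 2 and 3 the median difference was -0.12, -0.41 and -0.04 for the core and -0.31, -0.44 and -0.20 for the regulatory particle. 16 of 17 regulatory particle genes and 7 of 14 core genes were lower in siMnt within every replicate number, against 29.4% of all tested genes.

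The level of the regulatory particle relative to the core can be read within each library, where it depends on no scaling between libraries. On mean log2 levels per kilobase of transcript, regulatory particle minus core was -0.18, -0.39 and -0.30 in siNTC replicates 1, 2 and 3 and -0.42, -0.46 and -0.44 in siMnt replicates 1, 2 and 3. All 3 siMnt libraries were below all 3 siNTC libraries, although siNTC replicate 2 lay close to siMnt. The siMnt minus siNTC difference of this quantity was -0.24, -0.07 and -0.15 within replicate numbers 1, 2 and 3, and it carries no p, being a score over chosen genes.

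**Figure D3:**
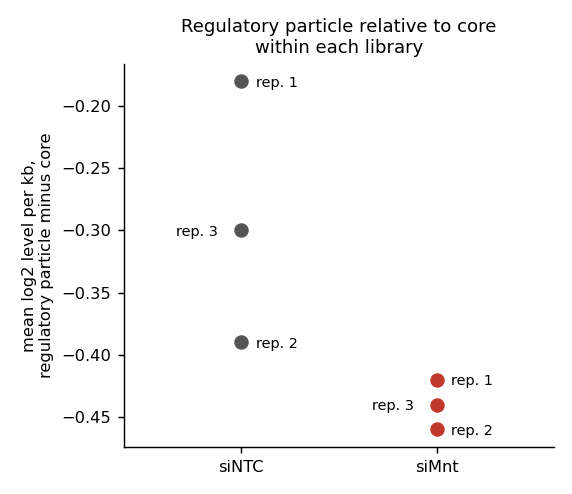
Mean log2 level per kilobase of the 17 regulatory particle genes minus that of the 14 core genes (y axis, log2) in each library, by siRNA (x axis), 1 point per library. The siNTC libraries spread from -0.39 to -0.18 and the siMnt libraries lie together between -0.46 and -0.42.

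Promoters were read from RefSeq (GRCm38.p6), taking the 250 bases before each transcript start, for 38 of the 45 genes (41 windows). They are given because Mnt binds the E-box CACGTG, and Nfe2l1 and Nfe2l2 bind antioxidant response elements with the core TGACNNNGC; both strands were searched. The E-box was in 3 of the 41 windows (7.32%), those of Psma4, Psmd9 and Psme3, against 6.02% of all 32851 windows of the table and 8.12% of those of tested genes. It was in 0 of 15 windows of the regulatory particle and 1 of 12 of the core. The antioxidant response element core was in 5 of the 41 windows (12.2%), those of Psmb5, Psmb6, Psmc6, Psmd12 and Psmd9, against 10.2% of all windows and 11.8% of those of tested genes. It was in 2 of the 15 windows of the regulatory particle and 2 of the 12 of the core. The shares thus lay near those of all promoters, a match describes letters and no binding, and the absence of a match says only that these letters are not in the window.

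Below, 4 of these windows are printed 5′ to 3′ in the direction of the gene, with motif matches in capitals: Psmd14, the subunit with the smallest adjusted p (chr2:61711444-61711693, plus strand, no match); Psmc6, lower with the block (chr14:45329574-45329823, plus strand, antioxidant response element core on the reverse strand); Psma4, the core gene nearest to 0 (chr9:54950609-54950858, plus strand, E-box); and Psmd9, a chaperone near 0 (chr5:123227940-123228189, plus strand, E-box and then antioxidant response element core).
Psmd14: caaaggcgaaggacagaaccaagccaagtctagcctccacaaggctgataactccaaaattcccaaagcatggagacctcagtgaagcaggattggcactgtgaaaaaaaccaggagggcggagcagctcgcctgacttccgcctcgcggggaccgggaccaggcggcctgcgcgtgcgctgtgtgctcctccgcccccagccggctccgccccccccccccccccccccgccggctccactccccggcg
Psmc6: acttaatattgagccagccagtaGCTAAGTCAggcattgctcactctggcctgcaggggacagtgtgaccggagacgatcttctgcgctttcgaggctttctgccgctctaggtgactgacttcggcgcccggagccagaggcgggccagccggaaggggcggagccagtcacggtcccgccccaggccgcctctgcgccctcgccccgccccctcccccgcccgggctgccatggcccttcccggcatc
Psma4: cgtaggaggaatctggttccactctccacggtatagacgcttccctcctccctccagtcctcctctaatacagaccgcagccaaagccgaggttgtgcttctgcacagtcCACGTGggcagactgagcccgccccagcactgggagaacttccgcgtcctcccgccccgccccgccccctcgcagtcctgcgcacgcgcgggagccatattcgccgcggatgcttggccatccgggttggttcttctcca
Psmd9: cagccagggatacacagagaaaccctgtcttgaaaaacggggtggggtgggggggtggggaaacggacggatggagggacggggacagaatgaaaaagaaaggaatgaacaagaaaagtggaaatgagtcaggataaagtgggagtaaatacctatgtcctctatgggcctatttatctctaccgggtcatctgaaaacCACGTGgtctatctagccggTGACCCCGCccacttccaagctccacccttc
The genes printed with an E-box, Psma4 and Psmd9, had log2 fold changes of -0.04 and -0.01. Psme3, the third gene with an E-box, was at -0.21. Genes whose windows held no E-box lay on both sides of 0, from -0.74 for Psmd8 to 0.26 for Psme2, with Psmd14 at -0.58. Whether the E-box goes with the change was not tested.

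Among the alpha subunits of the core, Psma3 had the largest difference. It was at 1238, 1787 and 1172 in siNTC replicates 1, 2 and 3 and at 992, 1045 and 1032 in siMnt (log2 fold change -0.43 ± 0.17, adjusted p = 0.185; 0.0654 with the block). The siMnt libraries all lay below the controls, and the log2 fold change shrank to -0.24 without siNTC replicate 2. Psma1 was at 4750, 6275 and 4678 against 4396, 4624 and 4384 (log2 fold change -0.22 ± 0.14, adjusted p = 0.39), also without overlap. Psma6 and Psma7, the latter the most abundant core transcript per length, were at 83.9% and 89.8% of the control mean, and in both the siMnt libraries overlapped siNTC replicate 3. Psma4 was nearest to 0 of all core genes (3101 ± 505 and 2994 ± 166, SD, n = 3; log2 fold change -0.04 ± 0.14), and was above its control in replicate numbers 1 and 3. Psma2 and Psma5 lay at 91.1% and 88.8% of the control mean.

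Of the beta subunits 0 of 7 had groups that did not overlap. Psmb5, Psmb6 and Psmb7 carry the proteolytic sites, of chymotrypsin-like, caspase-like and trypsin-like activity. Psmb5 was at 1351, 1911 and 1211 in siNTC and 1168, 1363 and 1279 in siMnt (log2 fold change -0.21 ± 0.18, adjusted p = 0.524). Psmb6 was at 3424, 4719 and 3328 against 3063, 3475 and 3230 (-0.21 ± 0.15, adjusted p = 0.441). Psmb7 was at 88.5% of the control mean. In all 3 the siNTC replicate 2 value stood alone above the rest. The structural beta subunits Psmb1, Psmb2, Psmb3 and Psmb4 had log2 fold changes of -0.10, -0.19, -0.24 and -0.08, and Psmb3 had the smallest adjusted p of the ring, 0.41. GENCODE names processed copies of Psmb5, Psmb6 and Psmb7, and how reads that match several copies were counted was not given in the sources used here, so these levels are uncertain.

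The ATPases of the base were lower in siMnt within every replicate number, 6 of 6. Psmc4 was at 4054, 5158 and 3560 in siNTC and 3078, 3341 and 3017 in siMnt, 73.9% of the control mean (log2 fold change -0.42 ± 0.15, adjusted p = 0.147; 0.0396 with the block). Psmc6 was at 3520, 5472 and 3017 against 2654, 2808 and 2589 (log2 fold change -0.53 ± 0.21, adjusted p = 0.175; 0.0419 with the block). In Psmc4 and Psmc6 the lowest control, siNTC replicate 3, still lay above the highest siMnt library. Psmc2 was at 4406, 6164 and 4053 against 3556, 3931 and 3398 (log2 fold change -0.40 ± 0.17, adjusted p = 0.199; 0.0485 with the block). Its siMnt level was 80.7%, 63.8% and 83.8% of the control within replicate numbers 1, 2 and 3. Without siNTC replicate 2 the log2 fold change shrank to -0.28 for Psmc6, -0.22 for Psmc2 and -0.27 for Psmc4, with adjusted p by limma of 0.161, 0.239 and 0.164. Psmc1 and Psmc5 did not overlap either and were at 79.3% and 83.3% of the control mean, but did not pass with the block (adjusted p = 0.0724 and 0.147). Psmc3, at 88.7%, was the ATPase whose groups overlapped.

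The other subunits of the base are the scaffolds Psmd1 and Psmd2 and the ubiquitin receptor Psmd4. Psmd2 was the proteasome gene with the highest normalised read count, at 13134, 12966 and 10687 in siNTC and 9147, 9172 and 8937 in siMnt. The log2 fold change was -0.43 ± 0.12 (adjusted p = 0.0914). The adjusted p was 0.0402 with the block, 0.0199 by DESeq2, 0.0473 with the GC and length correction, and 0.1 by edgeR. By limma it was 0.0218 without siNTC replicate 3 and 0.108 to 0.306 without each of the other libraries. Here siNTC replicates 1 and 2 were alike, and every siMnt library lay below siNTC replicate 3. Psmd1 was at 7138, 7230 and 5908 against 5665, 5343 and 5158 (log2 fold change -0.32 ± 0.12, adjusted p = 0.167; 0.0748 with the block). Without siNTC replicate 3 its adjusted p by limma was 0.0486, and without each of the other libraries 0.201 to 0.397. Psmd4 was at 82.0% of the control mean, and siMnt replicate 2 overlapped siNTC replicate 3 there.

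The lid held both the largest difference and one of the smallest. Psmd14, the deubiquitinase that cuts ubiquitin chains from the substrate, was at 3943, 4690 and 3351 in siNTC and 2567, 2737 and 2614 in siMnt. Its siMnt level was 65.1%, 58.4% and 78.0% of the control within replicate numbers 1, 2 and 3, and no siMnt library reached the lowest control. Of the 45 genes it had the smallest adjusted p, 0.0601 (log2 fold change -0.58 ± 0.14; adjusted p = 0.0143 with the block, 0.00596 by DESeq2, and 0.0249 with the GC and length correction). For Psmd14 by itself an exact two-sided permutation test over the libraries had p = 0.1, which no split of 3 and 3 can go below.

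Psmd8 had the lowest fold change of the 45. It was at 8071, 10242 and 5383 in siNTC, a wide spread, and at 4594, 4605 and 4530 in siMnt, where the libraries nearly coincided. The log2 fold change was -0.74 ± 0.21 (adjusted p = 0.0909; 0.0204 with the block). It was -0.99 without siNTC replicate 3 (adjusted p = 0.00338 by limma) and -0.53 without siNTC replicate 2 (adjusted p = 0.12 by limma), and without each of the other libraries the adjusted p was 0.209 to 0.284. Within replicate number 3 siMnt was at 84.2% of the control, against 56.9% and 45.0% within numbers 1 and 2. Psmd6 was at 1659, 2049 and 1552 against 1298, 1279 and 1337, with no overlap (log2 fold change -0.42 ± 0.13, adjusted p = 0.114). Its adjusted p was 0.0522 with the block, 0.0495 with the GC and length correction, and 0.0346 with both together. Psmd7, the inactive partner of Psmd14, and Psmd12 and Psmd13 also did not overlap, at 82.1%, 85.3% and 92.3% of the control mean. Psmd11 was at 90.8%.

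Psmd3, also of the lid, had the smallest difference of the regulatory particle, at 5015, 3646 and 4669 in siNTC and 4204, 4316 and 4546 in siMnt (log2 fold change -0.02 ± 0.14, adjusted p = 0.961). It was lowest in siNTC replicate 2, the library that was highest for most other subunits. Its level was below the control within replicate numbers 1 and 3 and above it within number 2, at 118%.

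**Figure D4:**
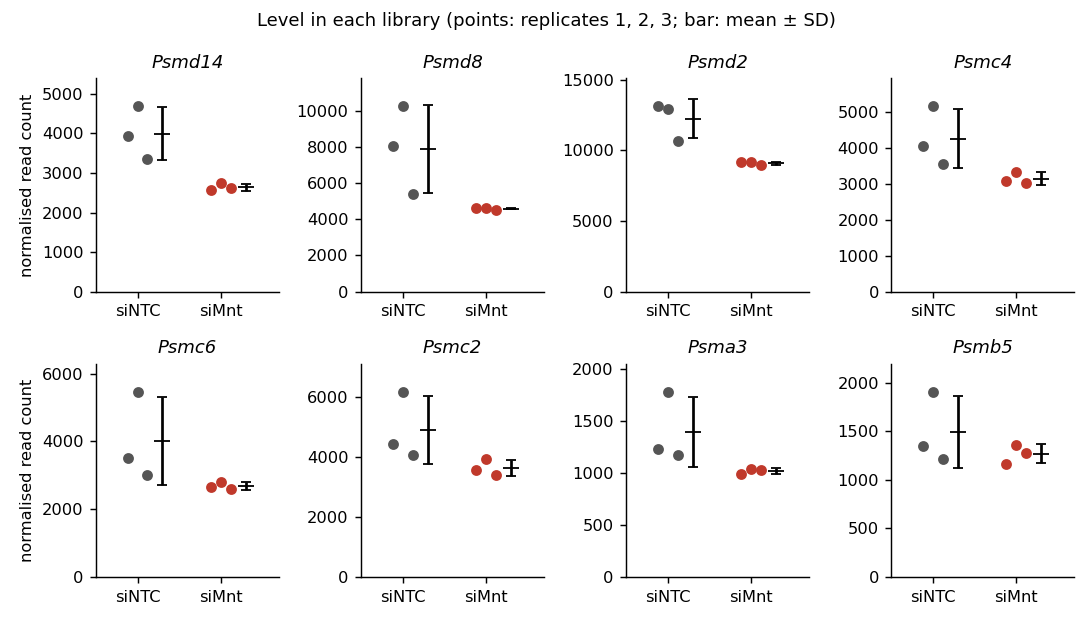
Normalised read counts (y axis, from 0) in the 3 siNTC (grey) and 3 siMnt (red) libraries, in the order of replicates 1, 2 and 3, with mean ± SD beside them, for the 6 genes that passed with the block and for the core genes Psma3 and Psmb5. In the first 6 panels and Psma3 the groups do not overlap; Psmb5 overlaps.

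Among the assembly chaperones and alternative caps 0 passed with or without the block. Of the 3 chaperones of the regulatory particle, Psmd5, Psmd9 and Psmd10, the log2 fold changes were -0.12, -0.01 and 0.01, with adjusted p by limma of 0.56, 0.964 and 0.977. Of the core chaperones, Psmg2 was at 633, 845 and 514 in siNTC and 506, 481 and 472 in siMnt, without overlap (log2 fold change -0.42 ± 0.19, adjusted p = 0.229; 0.0981 with the block; -0.23 without siNTC replicate 2). Its partner Psmg1 was at 85.6% of the control mean, with siMnt replicate 3 inside the control range. Psmg3 varied widely among the controls (506, 905 and 483 against 364, 531 and 522), and Psmg4 was at 413 ± 71.9 and 431 ± 40.4 (SD, n = 3).

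The caps that can replace the regulatory particle include Psme1 with Psme2, which are induced by interferon and used in antigen processing, the nuclear cap Psme3 and the large single-chain cap Psme4. Psme1 was at 869, 1208 and 1146 in siNTC and 1140, 1317 and 1294 in siMnt (log2 fold change 0.23 ± 0.15, adjusted p = 0.409). It was the single gene of the 45 that was higher in siMnt within every replicate number, and the groups overlapped. Psme2 was low, at 68.1, 86.4 and 98.8 against 95.1, 82.3 and 128.7 (0.26 ± 0.25, adjusted p = 0.571), while its near-identical copy Psme2b was at 1694 ± 167 and 1730 ± 73.0 (SD, n = 3), and reads of the 2 genes may have been split between them. Psme3 was at 4971, 4115 and 4172 against 3952, 3552 and 3899, without overlap (-0.21 ± 0.12, adjusted p = 0.324). Psme4 was at 6872, 4314 and 6632 against 6110, 5140 and 6139 (-0.01 ± 0.19), and, like Psmd3, was lowest in siNTC replicate 2. The inhibitor Psmf1 was at 91.7% of the control mean and Psmc3ip at 93.9%.

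Of the immunoproteasome genes, which replace the proteolytic beta subunits in immune cells and under interferon, Psmb10 was at 458, 575 and 601 in siNTC and 518, 647 and 643 in siMnt (log2 fold change 0.15 ± 0.16, adjusted p = 0.629). Psmb9 lay between 0 and 6.13 and was below the level tested, and Psmb8 was not analysed here.

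Among themselves the subunit transcripts were not at equal levels. Per kilobase of the principal transcript in GENCODE, the median over genes was 3098 normalised read counts for the core, 2153 for the regulatory particle and 649 for the caps, chaperones and inhibitor. Core levels ran from 426 for Psma3 to 7005 for Psma7, with Psmb4 next at 5275, but the principal transcript listed for Psma3 has 2846 bases, and a shorter one in use would raise its level. The ATPases lay within 1.72-fold of each other per kilobase: Psmc4 at 2570 ± 560 and Psmc5 at 2566 ± 374 (SD over the 6 libraries) were level, and Psmc6 was lowest at 1497 ± 490. In the lid the levels per kilobase ran from 514 for Psmd11 to 4050 for Psmd8. The limit given for Psma3 applies to these levels too: the principal transcripts of Psmc6 and Psmd11 have 2234 and 2848 bases.

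Around the proteasome, 31 of a list of 32 further genes were tested: subunits without a Psm symbol, shuttles, deubiquitinases, ubiquitin genes and the factors that control subunit transcription. By limma 0 passed in either direction, where 1.37% of all tested genes passed as lower and 2.56% as higher, and 5 were lower at an unadjusted p under 0.05 (10.7% of all tested genes). DESeq2 called Zfand2a and Ubqln1, both lower (4.89% of all tested genes lower), and edgeR called 0. With the block 3 of 31 passed, all lower: Zfand2a, Ubqln1 and Ufd1 (6.56% of all tested genes lower). The list median was -0.13. Zfand2a, a proteasome-binding protein induced by arsenite, was at 1168, 1465 and 898 in siNTC and 712, 582 and 637 in siMnt, without overlap (log2 fold change -0.85 ± 0.19, adjusted p = 0.0509; 0.0135 with the block). Ubqln1, a shuttle that carries ubiquitinated proteins to the proteasome, was at 5240, 4209 and 4487 against 3133, 2952 and 3552 (-0.53 ± 0.13, adjusted p = 0.0645; 0.0197 with the block). In Ubqln1 siNTC replicate 2 was the lowest control, and the groups did not overlap. Ufd1, a partner of the segregase Vcp, was at 1963, 2512 and 1767 against 1540, 1506 and 1505 (log2 fold change -0.44 ± 0.15, adjusted p = 0.124; 0.0467 with the block).

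Of the factors that control subunit transcription, Nfe2l1 was at 8441, 10456 and 8268 in siNTC and 7412, 9208 and 7470 in siMnt (log2 fold change -0.17 ± 0.15, adjusted p = 0.516). The groups overlapped, and siMnt was at 87.8%, 88.1% and 90.4% of the control within replicate numbers 1, 2 and 3. Nfe2l2, the related antioxidant factor, was at 3329, 4396 and 3906 against 4228, 4188 and 4256 (0.13 ± 0.13, adjusted p = 0.57). Pomp, the maturation factor of the core, was at 2512, 3116 and 2406 against 2722, 2595 and 2532 (-0.02 ± 0.13, adjusted p = 0.934). Like the core genes it was highest in siNTC replicate 2. That held for 17 of the 31 genes of the list, Nfe2l1, Nfe2l2 and Uba1 among them (31.8% of all tested genes). The ubiquitin-activating enzyme Uba1 was at 14876, 16523 and 12361 against 11364, 11472 and 11092, without overlap (-0.36 ± 0.14, adjusted p = 0.171). Uba1, Zfand2a, Ubqln1 and Ufd1 were chosen for mention after their values were seen.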

How the data were processed

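RNA-seq libraries, 6 in all, were grouped and numbered by their titles. Trizol extraction and Illumina's standard library preparation are stated per the labels' protocols, with no word on strand. TopHat2 2.1.0, DESeq2 and build mm9 come from the submitters' processing notes. The read counter and annotation were not given in the sources used here. The authors deposited a signal per gene: read counts divided by 1 size factor per library, as the values show, since dividing by the value of 1 read gave numbers within 0.05 of a whole read for 99.75% of values above 0. Whether replicates are separate cultures is not stated in the labels, and the p-values then cover the spread between libraries alone, which may be technical. Within each group no 2 libraries were copies (mean chi-square per gene 15.1 or more). Libraries of different groups were not compared in this way.

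Genes with a mean under 10 were left out (1958), and log2(value + 1) was tested with limma 3.58.1 in R 4.3.3 (empirical Bayes with a trend), with Benjamini-Hochberg adjustment over 12568 genes. The correlations of the deviations of same-numbered libraries from their group means, across genes, were 0.28, 0.496 and 0.346, and those of other pairs -0.383 to 0.0329. The numbers of the titles were therefore taken as pairs, and the fit with that block is given where it changes a call. Alternatives were pseudocounts, filters, scalings, the variance model, the block, a GC content and length correction (loess, GENCODE M21, 98.8% of genes matched), each library left out, a threshold of 0.1, and edgeR 4.0.16 and DESeq2 1.42.0 on recovered reads. Scripts (Python 3.11.15, pandas 2.3.3) were tested on simulated data.

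The members and lists were chosen with earlier results of these data known. Named genes are Mnt; in each role the 3 with the smallest p and the 2 most abundant; those nearest to 0; the extremes; the immunoproteasome; passing pathway genes; and Nfe2l1, Nfe2l2 and Pomp. All other members and pathway genes named with values were chosen after their values were seen. Transcript levels per kilobase use, for 45 matched genes, the longest transcript within the best APPRIS principal level of the gene. A result for 1 gene of the pathway list is not reported here.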

Additional observations from a re-analysis of the deposited data

How the results depend on the processing

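Over all tested genes 172 were lower and 322 higher in siMnt. These counts became 825 and 1173 with the replicate block, 404 and 555 with the GC and length correction, 1087 and 1258 with that correction and the replicate block, 614 and 843 by DESeq2, 94 and 212 without the trend, 524 and 812 at an adjusted p under 0.1, and the higher count 207 at a minimum mean of 50. Leaving out 1 library gave 0 to 817 lower and 0 to 1195 higher. The lower count of the regulatory particle, 0, became 6 with the replicate block, 3 with the GC and length correction, 8 with both, 3 by DESeq2 and 3 at an adjusted p under 0.1, and 0 to 7 with 1 library left out, the 7 being without siNTC replicate 3. For the core and the other members it stayed 0 in every alternative run with limma, edgeR or DESeq2 on 6 libraries. The lower count of the pathway list, 0, became 3 with the block, 2 with the GC and length correction, 5 with both, 2 by DESeq2, 2 at an adjusted p under 0.1, 1 with no filter, 1 with a pseudocount of 5, and 0 to 4 with 1 library left out.

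Leaving out 1 library was, for counts of direction and overlap, a choice made after seeing the data. Below 0 were then 9 to 14 core and 16 to 17 regulatory particle genes (50.8% to 51.6% of all tested genes). Lower without overlap were 2 to 7 core and 13 to 16 regulatory particle genes (18.4% to 25.0% of all tested genes). The core median was -0.28 to -0.03 and that of the regulatory particle -0.42 to -0.22. Scaling moved the median of all genes to between -0.001 and 0.003. With the GC and length correction, with or without the block, Psma4 was at 0.04. With 1 library left out the sign also changed, among the genes named by the rule, for Psmb4 (-0.14 to 0.03), Psmb1 (-0.18 to 0.03), Psmd3 (-0.15 to 0.08), Psmd9 (-0.08 to 0.07), Psmd10 (-0.09 to 0.14), Psme4 (-0.22 to 0.11), Psmf1 (-0.19 to 0.01), Psma4 (-0.12 to 0.09) and Pomp (-0.10 to 0.09). Of the other members, Psmg4 went to -0.03, Psme2b to -0.04 and Psmc3ip to 0.07, and Psma5 and Psmb7 were at 0.00 without siNTC replicate 2. All of these but Psma5 and Psmb7 lay within 1 standard error of 0 with 6 libraries. The cause was not tested. The replicate block changed the call of Mnt and of the 6 regulatory particle genes and 3 pathway genes named above, and of no other member or pathway gene.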
